A study of Homo sapiens with 4 samples.

Results

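The mitochondrial ribosomal protein genes were examined after knockdown of TARBP2 in MDA-LM2, a derivative of MDA-MB-231 human breast cancer cells with high capacity to metastasize to the lung. A gene was counted as a member when a RefSeq record of the authors' deposited table belonged to a symbol that starts with MRPL or MRPS and a number, with an optional letter A, B or C. Of 77 such protein-coding symbols, 76 had a record, MRPL27 being the exception, and these 76 are members among 19468 named genes. The symbols place 48 members in the large subunit and 28 in the small subunit of the mitochondrial ribosome. Total RNA was taken 48 hours after lipid transfection and hybridised to Illumina expression BeadChips. The knockdown group has 2 arrays, each from cells given a different siRNA against TARBP2, and the control group has 2 arrays from cells given a control siRNA. All 4 samples share the line and the transfection. No label ties the 2 control arrays to separate cultures, so the spread between them can be technical. The spread between the 2 knockdown arrays also holds the difference in siRNA.

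Mitochondrial ribosomes make the few proteins that are encoded in mitochondrial DNA, all of them subunits of the respiratory chain and ATP synthase. Their ribosomal RNA is transcribed in mitochondria, whereas every one of their proteins is encoded in the nucleus, made in the cytosol and imported. Part of the proteins have counterparts in bacterial ribosomes, and the others are found only in mitochondrial ribosomes. TARBP2 is a double-stranded RNA-binding protein and a partner of Dicer.

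The authors' deposited table holds a single log fold change per sequence record, knockdown over control, without a replicate value, an error or a level. Its log base is not stated, and values are read here as log2. The target itself had 2 records, at -0.98 and -0.58, and a mean of -0.78 by the authors' deposited table. No probe is named in the sources used here, and the fold changes were not traceable to probes by value, so member values per array, and tests on members, are not given. On the arrays, 41.0% to 45.7% of 47321 probes were detected. No probe of 21075 tested passed an adjusted p of 0.05 between the groups (limma, 0% called), with 815 probes at an unadjusted p under 0.05 and 818 by limma without the intensity trend. Without the array of siRNA 1 the count was 4479, and without that of siRNA 2 it was 12035, on the assumption that the lone array varies as the controls do. The log2 signals of the 2 knockdown arrays differed with an SD of 0.852 over probes, against 0.250 between the controls. The array of siRNA 1 stood apart, at an SD of 0.805 and 0.799 from the controls, while that of siRNA 2 was at 0.384 and 0.395 from them. How much each siRNA weighs in the member values below is therefore not known. Of 12 leukocyte marker genes, 4 (33.3%) lay above 0.2 in the authors' deposited table, where 13.1% of all named genes did. These were LAPTM5, CD74, CD14 and HLA-DRA, at 0.36 to 0.75, and the other 8 lay between -0.06 and 0.06. All samples are of the same line, and no other cell type is part of the design. The part of other cells in the member values was not tested, and a change in their number cannot be told apart from a change in RNA per cell.

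The genes of the mitochondrial ribosome went both ways in similar numbers. Of the 76 members, 19 lay above 0.2 in the authors' deposited table, the bound of the authors' class of higher genes, where 13.1% of all named genes did. Below -0.2, its mirror, lay 18 members of the authors' deposited table, where 12.1% of all named genes did. The members beyond either bound made up 48.7% of all members, against 25.2% of named genes, in the authors' deposited table. The table holds no level by which to match genes, so the difference in spread is not read as particular to the ribosome. The median member stood at -0.01 and the median named gene at 0.00 in the authors' deposited table. The SD over genes was 0.318 for members and 0.239 for all named genes.

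**Figure D1:**
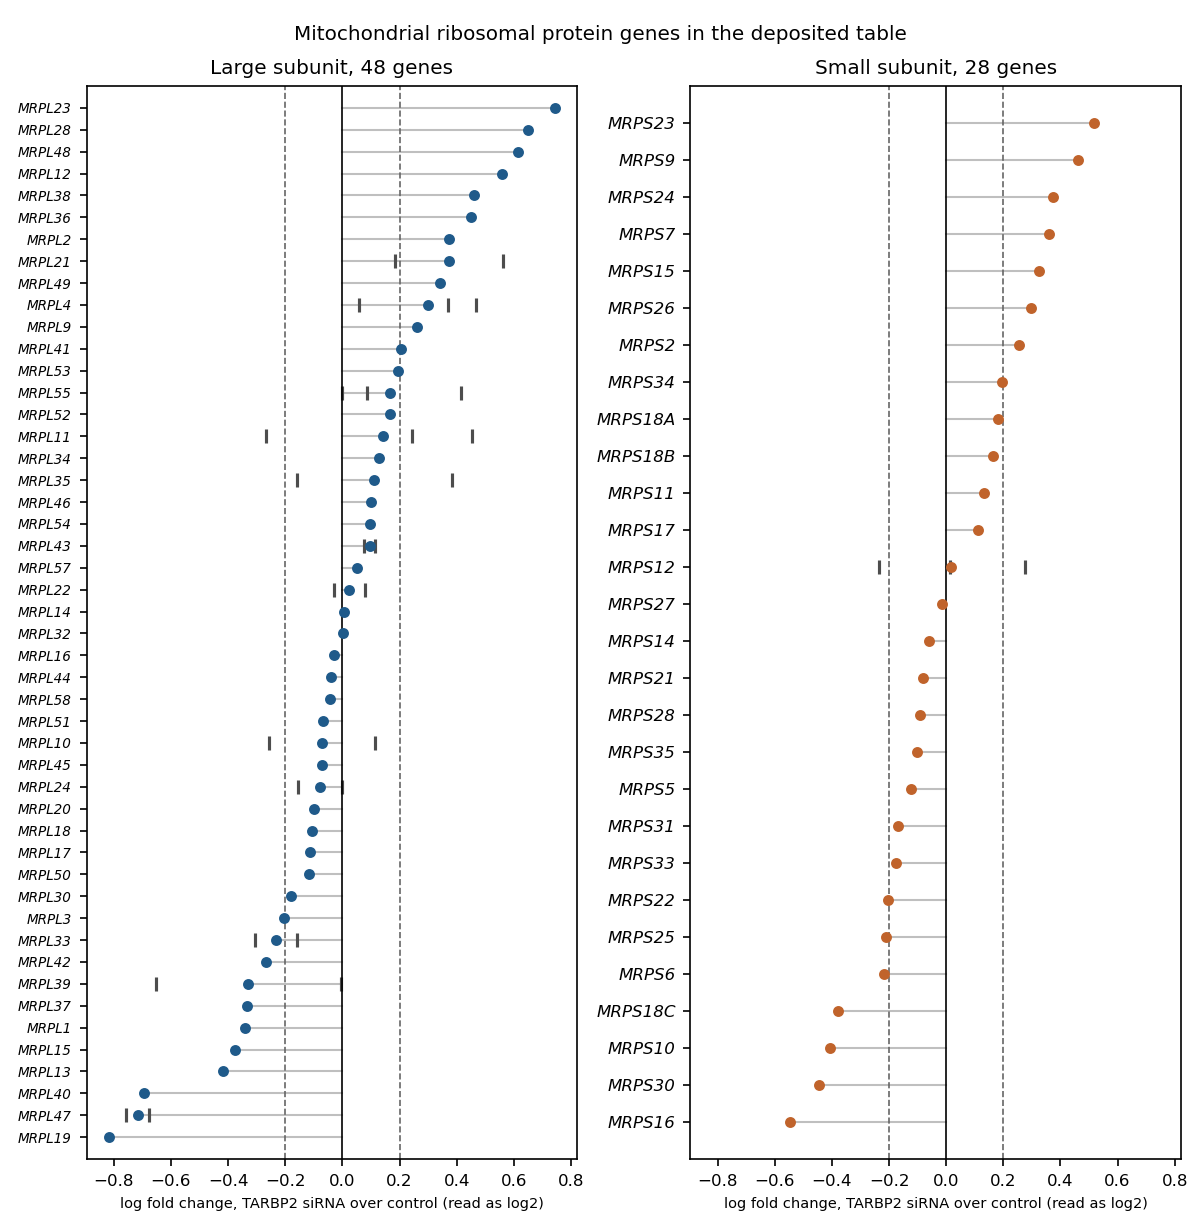
Log fold change, knockdown over control (x axis, read as log2) for each mitochondrial ribosomal protein gene (y axis), with the large subunit on the left and the small subunit on the right. Dots are gene values, grey ticks the records of genes that have several, and dashed lines 0.2 and -0.2. Values run from -0.82 (MRPL19) to 0.74 (MRPL23), and in both subunits about as many genes lie beyond the upper as beyond the lower line.

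The subunits did not separate. The authors' deposited table listed 12 of 48 large subunit genes above 0.2 and 11 below -0.2, and 7 of 28 small subunit genes on either side. The medians were 0.01 for the large and -0.04 for the small subunit in the authors' deposited table, 0.04 apart. By means, 0.02 for the large and 0.01 for the small subunit, the gap was 0.01. The lower quartile was -0.13 in the large and -0.18 in the small subunit, and the upper quartiles were 0.20 and 0.21 in the authors' deposited table. The largest values lay in the large subunit, which also has more genes. Of the 9 members beyond 0.5 or -0.5, a range that holds 6.35% of all named genes, 7 were MRPL genes and 2 MRPS genes. These were 14.6% of the 48 large and 7.14% of the 28 small subunit genes, and the difference was not tested. A pair of MRPS genes, MRPS18A (0.18) and MRPS30 (-0.44 in the authors' deposited table), belong to the large subunit in the structure of the human mitochondrial ribosome. With both counted there, 12 large subunit genes lay above 0.2 and 12 below -0.2, and in the small subunit 7 and 6.

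**Figure D2:**
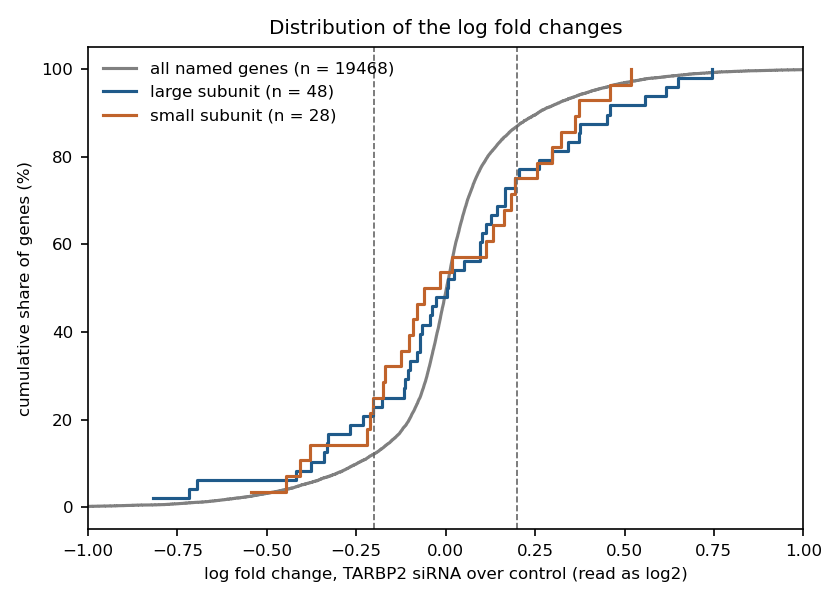
Cumulative share of genes (y axis, percent) by log fold change (x axis, read as log2, drawn from -1 to 1) for all 19468 named genes (grey), the 48 large subunit genes (blue) and the 28 small subunit genes (orange). The 2 subunit curves run close together and are flatter than that of all genes, with 12 of 48 large and 7 of 28 small subunit genes above 0.2.

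The promoters of the farthest members with a listed promoter are shown here, the 2 highest and the 2 lowest of each subunit, since members of both directions carry the same kinds of short motif. Each window holds 250 bases before and 50 after a transcription start (RefSeq, GRCh38.p14), 5′ to 3′ on the strand of the gene. Capitals mark a match on either strand to the core of ETS factors such as GABP (CCGGAAG), to NRF1 (GCGCANGCG) or to YY1 (AAGATGGCG), factors known to act at nuclear genes of mitochondrial function. The windows of the highest large subunit genes with an entry follow.
MRPL28, chr16:370489-370788, minus strand: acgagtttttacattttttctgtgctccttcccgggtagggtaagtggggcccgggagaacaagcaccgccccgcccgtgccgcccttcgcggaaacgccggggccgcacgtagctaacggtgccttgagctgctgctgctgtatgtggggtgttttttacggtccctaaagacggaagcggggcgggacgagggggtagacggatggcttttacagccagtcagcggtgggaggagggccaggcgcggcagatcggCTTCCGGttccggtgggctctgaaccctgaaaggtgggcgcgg
MRPL48, chr11:73787624-73787923, plus strand: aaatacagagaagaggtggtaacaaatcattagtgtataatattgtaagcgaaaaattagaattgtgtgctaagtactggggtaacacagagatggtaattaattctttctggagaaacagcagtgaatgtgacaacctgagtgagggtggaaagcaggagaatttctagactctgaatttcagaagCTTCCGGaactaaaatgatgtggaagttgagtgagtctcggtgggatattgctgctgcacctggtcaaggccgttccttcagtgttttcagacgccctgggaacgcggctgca
The lowest large subunit genes were MRPL19 and MRPL47, and for MRPL47 the table lists 2 starts, of which the first is shown.
MRPL19, chr2:75646533-75646832, plus strand: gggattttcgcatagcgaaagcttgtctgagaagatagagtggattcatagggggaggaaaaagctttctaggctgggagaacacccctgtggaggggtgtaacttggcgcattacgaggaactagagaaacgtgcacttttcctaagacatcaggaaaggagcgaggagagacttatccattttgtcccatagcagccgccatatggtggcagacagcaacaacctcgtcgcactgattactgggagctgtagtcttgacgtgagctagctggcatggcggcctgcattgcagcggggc
MRPL47, chr3:179604589-179604888, minus strand: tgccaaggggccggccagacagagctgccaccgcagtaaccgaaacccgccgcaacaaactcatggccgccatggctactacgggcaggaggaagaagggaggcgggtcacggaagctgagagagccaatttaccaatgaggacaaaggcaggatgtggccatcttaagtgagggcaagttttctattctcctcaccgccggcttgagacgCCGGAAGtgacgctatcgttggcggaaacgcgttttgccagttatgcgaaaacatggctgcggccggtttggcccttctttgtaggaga
MRPS23 and MRPS9 were the highest of the small subunit.
MRPS23, chr17:57849995-57850294, minus strand: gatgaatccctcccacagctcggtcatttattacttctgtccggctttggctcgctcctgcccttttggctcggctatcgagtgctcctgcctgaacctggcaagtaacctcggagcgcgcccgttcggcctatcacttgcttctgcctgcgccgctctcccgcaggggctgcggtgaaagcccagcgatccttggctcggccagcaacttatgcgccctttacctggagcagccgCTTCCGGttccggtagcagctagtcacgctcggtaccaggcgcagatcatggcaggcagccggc
MRPS9, chr2:105037819-105038118, plus strand: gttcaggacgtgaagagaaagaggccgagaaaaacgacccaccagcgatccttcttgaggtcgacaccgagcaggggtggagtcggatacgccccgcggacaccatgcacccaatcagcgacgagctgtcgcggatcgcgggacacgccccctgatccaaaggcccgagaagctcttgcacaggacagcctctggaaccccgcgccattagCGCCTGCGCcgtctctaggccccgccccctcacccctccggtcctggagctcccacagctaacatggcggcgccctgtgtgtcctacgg
MRPS16 and MRPS30 were the lowest genes with an MRPS symbol.
MRPS16, chr10:73252595-73252894, minus strand: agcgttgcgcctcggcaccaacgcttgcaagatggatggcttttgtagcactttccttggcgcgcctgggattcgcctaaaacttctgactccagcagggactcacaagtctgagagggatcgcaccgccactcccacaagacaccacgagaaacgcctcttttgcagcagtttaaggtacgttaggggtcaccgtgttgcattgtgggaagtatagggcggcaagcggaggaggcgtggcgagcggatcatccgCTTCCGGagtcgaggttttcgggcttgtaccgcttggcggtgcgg
MRPS30, chr5:44808697-44808996, plus strand: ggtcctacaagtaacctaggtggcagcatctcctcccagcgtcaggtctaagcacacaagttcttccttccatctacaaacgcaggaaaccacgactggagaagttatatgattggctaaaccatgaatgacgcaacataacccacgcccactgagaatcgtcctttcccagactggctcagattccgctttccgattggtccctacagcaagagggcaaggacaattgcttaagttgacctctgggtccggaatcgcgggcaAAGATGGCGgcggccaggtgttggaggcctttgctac

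Of the 76 members, 68 had a promoter entry, 11 of them with more than 1 start, and a gene was counted when any of its windows held the motif. The ETS letters were found in 29 of these 68 genes (42.6%), against 17.0% of the 14593 named genes with an entry and 10.3% of all 35116 windows. The YY1 letters were in 13 members (19.1%), against 3.41% of named genes and 1.75% of windows. NRF1 letters were in 14 members (20.6%), against 13.1% of named genes and 7.52% of windows. The NRF1 letters were first searched with a further C at their 3′ end and were shortened after that result was seen. In the longer form they were in 9 members (13.2%), against 10.1% of named genes and 5.78% of windows. In all, 46 members held at least 1 of the 3 motifs and 10 held more than 1, and no matches to different motifs overlapped. The large and the small subunit had the ETS letters in 17 of 41 and 12 of 27 genes.

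The motifs were spread over both directions of the log fold change. Among members with a promoter entry, the ETS letters were in 5 of 16 above 0.2, 16 of 36 between the bounds and 8 of 16 below -0.2 in the authors' deposited table. The YY1 letters were in 3 of 16, 7 of 36 and 3 of 16, and the NRF1 letters in 2 of 16, 10 of 36 and 2 of 16. In the longer form the NRF1 letters were in 2 of 16, 7 of 36 and 0 of 16. MRPL28 and MRPL47, at 0.65 and -0.72 in the authors' deposited table, both carry the ETS letters in the windows shown, and the window of MRPL19 holds none of the 3 motifs on either strand. A match describes letters and is no evidence that a factor binds.

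**Figure D3:**
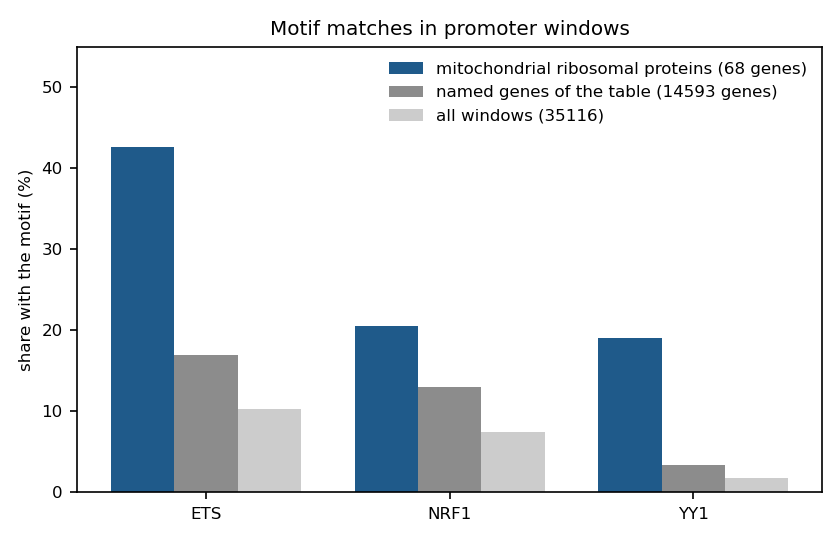
Share of genes or windows (y axis, percent) with a match to the ETS, NRF1 and YY1 letters, for the 68 mitochondrial ribosomal protein genes with a promoter entry (blue), the 14593 named genes with an entry (dark grey) and all 35116 windows (light grey). The blue bars stand at 42.6%, 20.6% and 19.1%.

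In the large subunit the highest gene was MRPL23, whose protein sits at the exit of the tunnel through which the new chain leaves. It stood at 0.74 in the authors' deposited table. MRPL28, a protein with a bacterial counterpart, stood at 0.65, and MRPL48, found only in mitochondrial ribosomes and part of the central protuberance, at 0.62 in the authors' deposited table. MRPL12, the stalk protein that contacts translation factors and is known to bind the mitochondrial RNA polymerase, stood at 0.56 in the authors' deposited table. MRPL38, also of the central protuberance, stood at 0.46 and MRPL36, a small protein with a bacterial counterpart, at 0.45 in the authors' deposited table. MRPL2 (0.37), whose bacterial counterpart lies near the peptidyl transferase centre, MRPL21 (0.37), MRPL49 (0.34), MRPL4 (0.30), MRPL9 (0.26) and MRPL41 (0.21) completed the 12 large subunit genes above 0.2 in the authors' deposited table. MRPL41 was the gene just inside that bound, and MRPL53 and MRPS34, both at 0.19 in the authors' deposited table, were just outside.

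The lowest member of all was MRPL19, a protein whose bacterial counterpart lies at the contact between the subunits, at -0.82 in the authors' deposited table. MRPL47, the counterpart of bacterial L29 at the tunnel exit, stood at -0.72, with its 2 records at -0.76 and -0.68 in the authors' deposited table. MRPL40, of the central protuberance, encoded in the region deleted in DiGeorge syndrome, stood at -0.69 in the authors' deposited table. MRPL13 stood at -0.42, MRPL15 at -0.38 and MRPL1, the protein of the mobile stalk beside the tRNA exit site, at -0.34 in the authors' deposited table, all of which have bacterial counterparts. MRPL37 (-0.33), MRPL39 (-0.33), MRPL42 (-0.27), MRPL33 (-0.23) and MRPL3 (-0.20) made up the remainder below -0.2 in the authors' deposited table. Mutations of MRPL3 are a known cause of a mitochondrial cardiomyopathy. MRPL3 and MRPS22 were just inside the lower bound, and MRPL30 just outside at -0.18 in the authors' deposited table.

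The proteins at the tunnel exit lay on both sides of 0. In the authors' deposited table the 7 proteins at the tunnel exit ran from MRPL23 at 0.74 to MRPL47 at -0.72, while MRPL39 was at -0.33, MRPL24 at -0.08, MRPL45, which ties the ribosome to the inner membrane, at -0.07, MRPL44 at -0.04 and MRPL22 at 0.02. Of the stalk proteins, MRPL12 lay above 0.2, with MRPL11 at 0.14 and MRPL10, which anchors MRPL12, at -0.07 in the authors' deposited table. With the median over its 3 records MRPL11 stood at 0.24, above the bound, by the authors' deposited table.

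The small subunit was led by MRPS23, found only in mitochondrial ribosomes, at 0.52 in the authors' deposited table. MRPS9, whose bacterial counterpart reaches towards the peptidyl-tRNA, stood at 0.46, MRPS24, the counterpart of bacterial S3, at 0.37, and MRPS7, of the head of the subunit, at 0.36, all in the authors' deposited table. MRPS15 (0.32), MRPS26 (0.30) and MRPS2 (0.26) were the other genes above 0.2 in the authors' deposited table. At the lower end MRPS16, mutated in a known deficiency of mitochondrial translation, stood at -0.55 in the authors' deposited table. It was followed by MRPS30 at -0.44, MRPS10 at -0.41 and MRPS18C at -0.38 in the authors' deposited table. MRPS6 (-0.22), MRPS25 (-0.21) and MRPS22 (-0.20) lay closer to the bound in the authors' deposited table. Mutations of MRPS22 and MRPS25 are known in patients with mitochondrial disease.

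Humans have 3 paralogues related to bacterial S18, which take different places in the mitochondrial ribosome. MRPS18C, which holds the place of bacterial S18 in the small subunit, stood at -0.38 in the authors' deposited table. MRPS18B, also of the small subunit, stood at 0.16 and MRPS18A, of the large subunit, at 0.18 in the authors' deposited table. Only MRPS18C of the 3 lay beyond a bound, and each has 1 record.

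Members were also split by whether they have a bacterial counterpart, with no test of the difference. Of the 45 with a counterpart, 13 lay above 0.2 (28.9%) and 11 below -0.2 (24.4%), and the authors' deposited table put their median at 0.00. For the 31 found only in mitochondria the counts were 6 (19.4%) and 7 (22.6%), and the median of the authors' deposited table was -0.02. The remaining 39 members, between the bounds, ran from MRPL30 at -0.18 to MRPL53 at 0.19 in the authors' deposited table, 25 of them MRPL and 14 MRPS genes.

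Records of a gene often differed. Of the 13 members with 2 or more records, 6 had records of both signs, and in the authors' deposited table the median gap between the highest and lowest record was 0.379. The pooled SD between records of a member was 0.257, more than the 0.2 that bounds the counts. MRPL11 had the widest gap, with records at -0.27 and 0.46 at its ends, and MRPS12 ran from -0.24 to 0.28 in the authors' deposited table, so both had records beyond each bound. The authors' deposited table listed MRPL39 at -0.65 and -0.01 and MRPL21 at 0.56 and 0.18 in their records. The other 63 members rest on 1 record each. Whether probes are shared with pseudogenes was not tested. At least 1 annotated pseudogene exists for 41 members, of which the authors' deposited table listed 9 above 0.2 (22.0%) and 11 below -0.2 (26.8%). For the 35 without one the counts were 10 (28.6%) and 7 (20.0%), against 13.1% and 12.1% of all named genes.

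Gene length went weakly with the direction among the members, the same way as over all named genes, and this was not tested. Those above 0.2 had a median gene length of 5.19 kb (19 genes, 0.677 to 77.3), those between the bounds 8.62 kb and those below -0.2 15.9 kb (18 genes, 3.53 to 90.0). Across the 76 members Spearman's rho between length and the log fold change of the authors' deposited table was -0.33 and Pearson's r with log10 length was -0.20. For all 19468 named genes rho was -0.07, and named genes above 0.2 and below -0.2 had median lengths of 19.8 and 33.5 kb. The share of G and C in the promoter window had a median of 64.2% in members above 0.2 and 57.0% in those below -0.2. In all named genes above 0.2 and below -0.2 the medians were 66.7% and 63.8%. For members rho was 0.28 over 68 genes (0.22 with the first window of each gene alone) and r was 0.17. Over 14593 named genes rho was 0.09. By subunit, rho with length was -0.37 in the large and -0.21 in the small subunit, and rho with the share of G and C was 0.20 and 0.41. Genes are not independent replicates, and all values come from the same arrays.

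**Figure D4:**
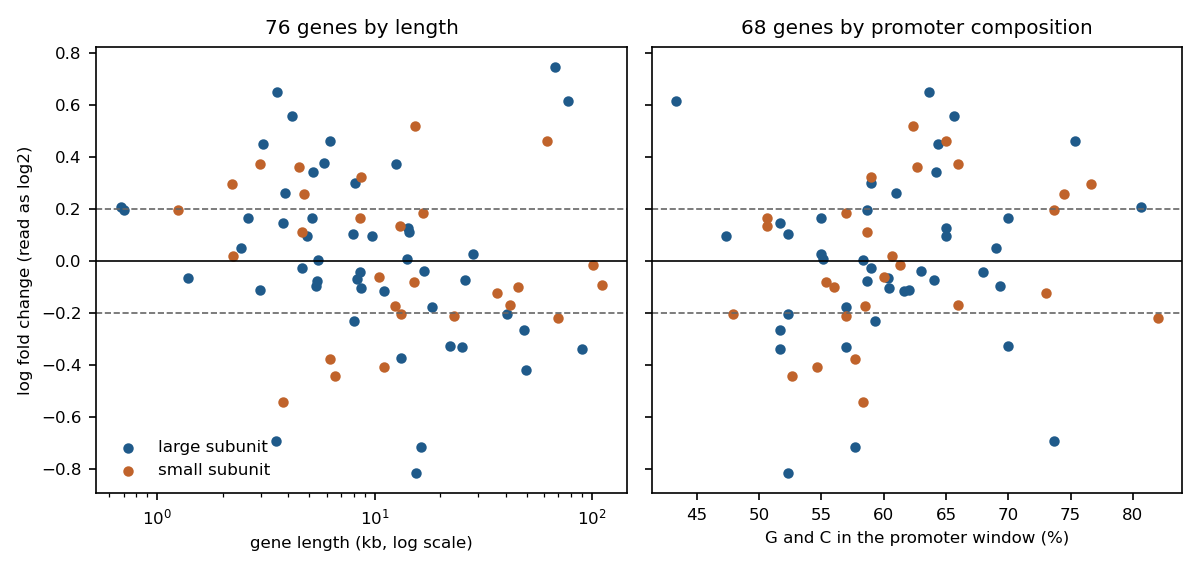
Log fold change (y axis, read as log2) of large (blue) and small (orange) subunit genes by gene length (left, x axis in kb, log scale, 76 genes) and by the share of G and C in the promoter window (right, x axis in percent, 68 genes). Dashed lines are 0.2 and -0.2. Genes above 0.2 have a median length of 5.19 kb and those below -0.2 of 15.9 kb, with wide overlap.

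Other genes of mitochondrial translation were set beside the members, and their counts stand against 13.1% of all named genes above 0.2 and 12.1% below -0.2. Of the 5 ribosomal proteins that carry another symbol, GADD45GIP1, of the large subunit, stood at 0.27 and AURKAIP1, of the small subunit, at -0.36 in the authors' deposited table. CHCHD1 stood at 0.17, DAP3, a GTP-binding protein of the small subunit, at 0.09 and PTCD3 at 0.01 in the authors' deposited table. For translation factors, 16 in number, the authors' deposited table put 3 above 0.2 (18.8%) and 6 below -0.2 (37.5%) and their median at -0.15. GUF1, a GTPase related to bacterial elongation factor 4, stood at -0.59, MTRFR, which frees stalled chains, at -0.42 and SLIRP, an RNA-binding partner of LRPPRC, at -0.37 in the authors' deposited table.

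For 24 measured genes of ribosome assembly and ribosomal RNA modification, of 25 listed, the authors' deposited table gave a median of 0.04, with 6 of them above 0.2 and 5 below -0.2, against the same 13.1% and 12.1% of all named genes. DHX30, an RNA helicase of mitochondrial RNA granules, stood at 0.52, MTERF3 at -0.44 and MPV17L2, which acts in ribosome assembly, at 0.41 in the authors' deposited table. Of 13 genes of mitochondrial transcription and its nuclear regulators, 1 lay above 0.2 (7.69%) and 5 below -0.2 (38.5%), and the authors' deposited table put their median at -0.07. The exception above was POLRMT, the mitochondrial RNA polymerase that MRPL12 binds, at 0.60, whereas TFAM, which packages mitochondrial DNA, stood at -0.42 and the transcription factor TFB2M at -0.35 in the authors' deposited table. For the factors behind the motifs searched, NRF1 stood at 0.09, YY1 at -0.19, and the GABP subunits GABPA and GABPB1 at -0.04 and -0.34 in the authors' deposited table.

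**Figure D5:**
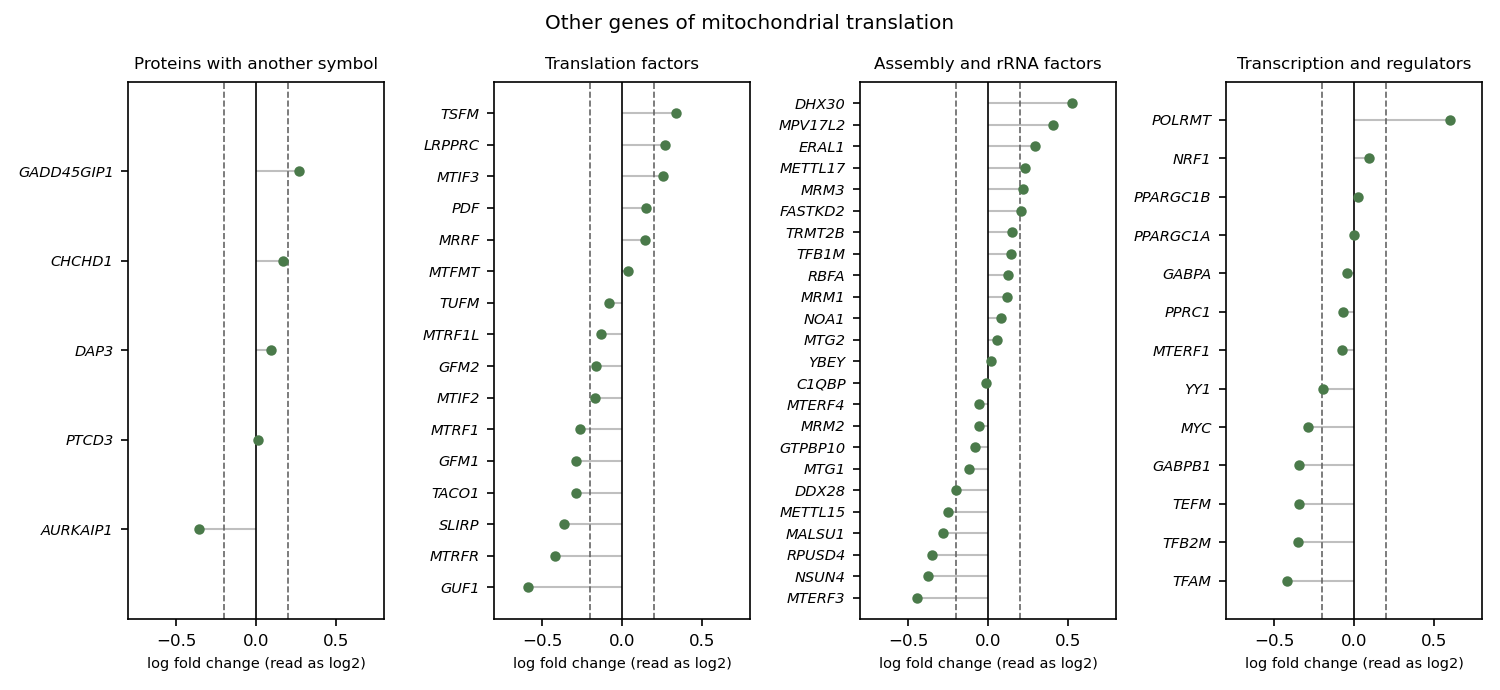
Log fold change (x axis, read as log2) of the other genes of mitochondrial translation (y axis), in 4 panels for ribosomal proteins with another symbol, translation factors, assembly and ribosomal RNA factors, and transcription with its nuclear regulators. Dashed lines are 0.2 and -0.2. Among translation factors 6 of 16 genes lie below -0.2, and POLRMT, at 0.60, is the highest gene of the 4 panels.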

How the data were processed

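Probe intensity values were deposited without normalization, per the file headers, with a detection score between 0 and 1 (a fraction) for each array in the deposited table. A deposited table of normalized intensity values had shared quantiles over the arrays. The submitters' processing notes name lumi and give no settings. The authors' deposited log fold changes, read as log2, were not traced to a transformation or a contrast of arrays. The deposited class was 1 above 0.2, per its values.

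Of 39745 records, 22411 (56.4%) matched a symbol of the RefSeq table of GRCh38.p14 without versions, and a gene took the mean over its records. The tests planned for member probes could not be run, since no probe was named. Probes were normalized with neqc (offset 16, 1 minus the score as detection p) and compared with limma 3.58.1 (R 4.3.3) with an intensity trend, two-sided, with Benjamini-Hochberg adjustment, after those detected (p under 0.05) on fewer than 2 arrays were dropped. The test was also run on simulated data in which every array had the spread of the control pair. The knockdown arrays differed by more than that, so the simulation cannot show how the test performs on these data. The number of arrays limits its precision. Named genes were TARBP2, the 6 highest and 6 lowest of each subunit, members beyond 0.5 or -0.5, near 0.2 or -0.2 or with records beyond both, the listed site groups, and the 3 farthest of each pathway list; the other members beyond 0.2 or -0.2 and the factors behind the motifs were named after their values were seen. The members and lists were chosen with earlier results of these data known. The 3 motifs, gene length, promoter GC, pseudogenes, the spread between records and gene pairs were chosen after the member values were seen.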

Additional observations from a re-analysis of the deposited data

How the results depend on the processing

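With a bound of 0.3, large subunit genes above and below numbered 9 and 8 in place of 12 and 11. Small subunit genes numbered 5 and 4 in place of 7 and 7. The share of all named genes beyond 0.3 or -0.3 was not computed. No count of members differed by more than 3 genes in any setting, and the medians differed by less than the SD between records. The settings were the median over records, centring on the median of all named genes, assignment by structure and a bound of 0.3. Curated records alone could change no member value, since every member record is curated. The median over records could change only members with 3 records, and centring moved every value by only 0.0024. The mean of the small subunit was 0.01 and its median -0.04. With the median over records 1 member, MRPL11, changed its side of a bound. Alternatives chosen after seeing the data were the longer NRF1 letters, in 9 members in place of 14, and the first window of each gene alone, with the ETS, NRF1 and YY1 letters in 28, 13 and 13 members. On the arrays 0 probes passed, also on the authors' normalized values, without a filter and without the trend. With 1 array left out the count ran from 0, without either control, to 4479 without siRNA 1 and 12035 without siRNA 2. The correlation of deviations from the group means was -0.04 between arrays with the same replicate number. With 2 arrays a group both numbers give the same value, so it cannot settle whether the samples are paired. A fit with the replicate number as a block passed 0 probes, with 1019 at an unadjusted p under 0.05 in place of 815. Signal over background is not known for members.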

Other observations

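Several members share a promoter region with a gene that starts on the other strand within 300 bases upstream, by the RefSeq starts. There were 20 such members, and 13 of the partners had a value in the authors' deposited table. In 2 pairs both genes lay above 0.2 in the authors' deposited table: MRPS7 (0.36) with GGA3, a Golgi adaptor gene, at 0.29, and MRPS2 (0.26) with PIERCE1 at 0.57. In 0 pairs were both below -0.2, and in 0 pairs did the genes lie beyond opposite bounds. Of all named genes 13.1% lay above 0.2 and 12.1% below -0.2. With such shares few of 13 pairs of any genes would lie beyond 2 bounds, so these counts are not read as agreement between partners. Among members beyond a bound, opposite signs were seen for MRPL49 (0.34) with FAU (-0.17) and for MRPL37 (-0.33) with CYB5RL (0.10). Spearman's rho over the 13 pairs was 0.31, and whether pairs go together more than other genes was not tested. MRPL18 stood at -0.11 beside TCP1, a subunit of the cytosolic chaperonin, at -0.55 in the authors' deposited table. MRPL32 stood at 0.00 beside the proteasome gene PSMA2 at -0.41 in the authors' deposited table. MRPS12, at 0.02, starts opposite SARS2, the mitochondrial seryl-tRNA synthetase gene, at 0.30 in the authors' deposited table. MRPL14, at 0.01, has TMEM63B at 0.38 as its partner in the authors' deposited table. The pairs were chosen after the values were seen.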
